A study of Mus musculus with 5 samples.

Results

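Oncofetal and liver cancer markers are genes that are active in the fetal liver or in liver tumours and low in the adult organ. The 10 examined here are Afp, Gpc3, Golm1, Dlk1, Cd24a, Epcam, Ly6d, Tspan8, Cpe and Slc34a2. They were chosen by name and with results of these arrays in view, from the same contrast of tumours and control livers, so their values are described and not tested. Each was read from 1 probe set whose only gene symbol was the member's, and all 10 were found among 19938 genes.

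The arrays hold RNA from livers of male mice aged about 10 months on regular food. The 2 controls were normal liver of Hdac3FL/+; AlbCre+ mice, which have 1 floxed Hdac3 allele beside a wild-type copy, and the 3 others were liver tumours of Hdac3FL/-; AlbCre+ mice, which have 1 floxed allele beside a null copy. All 5 animals carried AlbCre, a Cre driven from the albumin promoter and so active in hepatocytes. Cre therefore leaves hepatocytes of the controls 1 working Hdac3 allele and those of tumour-bearing mice none. By these genotypes, cells without active Cre keep 2 working alleles in the controls and 1 in tumour-bearing mice. Arrays within a group are biological replicates by their labels, and the comparison joins genotype with tumour tissue, which cannot be told apart here. On the deposited log2 scale Hdac3 itself read 8.21 and 8.37 in control livers, against 6.78, 6.57 and 6.65 in tumours 1, 2 and 3. Whether its probes lie in the deleted part was not analysed here. In bulk tissue, fewer cells of a type and less RNA per cell cannot be told apart.

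As background, the yolk sac and fetal liver secrete Afp, a member of the albumin family, and it is shut down after birth and returns in many liver cancers. Gpc3 and Dlk1 are surface proteins of the fetal liver, Epcam and Cd24a mark hepatic progenitor cells and bile duct epithelium, and Golm1 is a Golgi protein that is released into serum in liver disease. The other members are best known outside the liver: Ly6d in early B cells and stratified epithelium, Tspan8 in gut epithelium and several carcinomas, Cpe in endocrine cells, and Slc34a2 in lung and gut epithelium.

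The markers did not come up together. A marker was counted in a tumour where it lay at least 1 log2 unit, a 2-fold difference, above the higher of the 2 control values. By that count 4 members were found in all 3 tumours (Ly6d, Cpe, Slc34a2 and Golm1), 4 in some (Cd24a and Tspan8 in 2, Gpc3 and Afp in 1) and 2 in none (Epcam and Dlk1). Over all genes, 2.64% met the first condition and 5.74% the second; since the members were taken from this contrast, nothing is read from the comparison. Tumour 1 held 7 of the markers, tumour 3 held 6 and tumour 2 held 5. Without control 1, the count in every tumour went from 4 to 7, with Afp, Cd24a and Tspan8 added, and the count in some tumours from 4 to 1. Without tumour 3 the count in some tumours was 2.

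**Figure D1:**
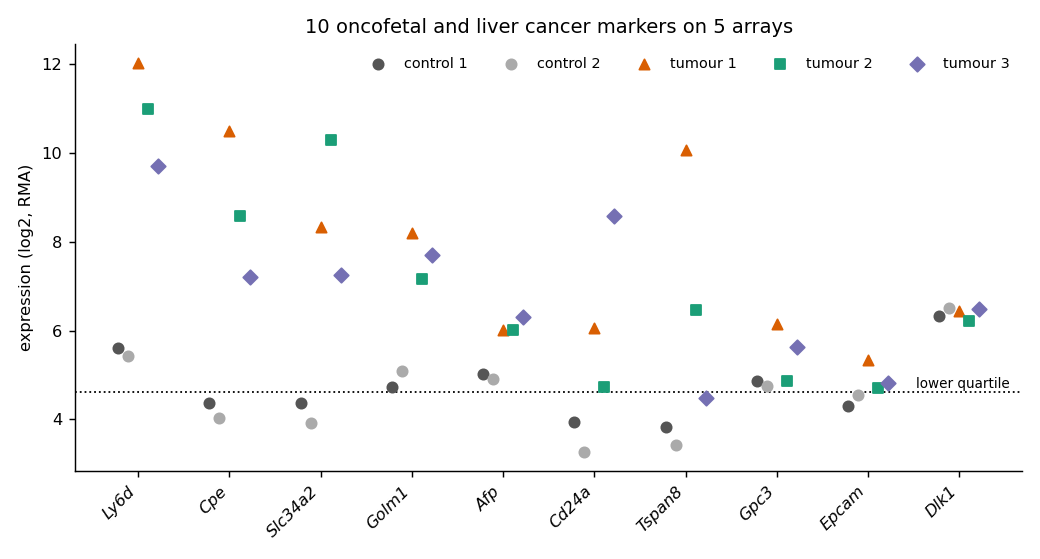
Log2 expression of the 10 markers (x axis) on each of the 5 arrays (1 point per array; circles are controls, other shapes the tumours), with the lower quartile of all genes on the control arrays, 4.62, as a dotted line. Ly6d, Cpe, Slc34a2 and Golm1 lie above both controls by a wide margin in every tumour, Cd24a and Tspan8 spread widely among tumours, and the 5 Dlk1 values lie between 6.23 and 6.52.

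Among the markers shared by every tumour, Ly6d, a small surface protein held by a lipid anchor, had the largest mean difference of the 4. On the log2 scale it read 5.60 and 5.43 in control livers, against 12.02, 10.99 and 9.71 in tumours 1, 2 and 3. The groups did not overlap, tumour 1 was highest, and the lowest tumour lay 4.11 above the higher control. The mean difference was 5.39 log2 units (SE 0.62, 95% confidence interval 3.87 to 6.92, n = 2 and 3), or 42.0-fold, and single tumours stood 90.8, 44.5 and 18.4-fold above the control mean.

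Cpe, a carboxypeptidase that trims prohormones in secretory granules, read 4.38 and 4.03 in the controls and 10.49, 8.58 and 7.21 in the tumours. Its order among tumours was that of Ly6d, and tumour 1 stood 9.75-fold above tumour 3. The mean difference was 4.56 log2 units (SE 0.88). Slc34a2, a sodium-coupled phosphate carrier, read 4.37 and 3.92 in the controls and 8.33, 10.29 and 7.26 in the tumours. Here tumour 2 was highest, and the mean difference was 4.48 log2 units (SE 0.83). The control means of Cpe and Slc34a2 were below the lower quartile of all genes on those arrays, where a reading was not shown to exceed background, so these sizes may be understated. With the controls set to that quartile the differences were 4.14 and 4.0.

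Golm1 read 4.73 and 5.09 in the controls and 8.19, 7.17 and 7.71 in the tumours. Of the markers found in every tumour it varied least among them, over 1.03 log2 units, and it had a mean difference of 2.78 (SE 0.31), or 6.87-fold. Afp was also above both controls in every tumour, at 6.0, 6.0 and 6.30 against 5.02 and 4.92. Its rise was small but even, with a range of 0.29 among the tumours and a mean difference of 1.13 (SE 0.15), or 2.19-fold. Tumours 1 and 2 lay 0.985 and 0.983 above the higher control, just short of the 1 log2 unit used for counting, and tumour 3 lay 1.28 above it. A reading of Afp near 6 stood beside control and tumour readings of Alb between 12.36 and 12.85; these are different probe sets, so the 2 levels are not compared.

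Of the markers whose values are given above, the promoters of Afp, Golm1 and Slc34a2 could be shown. Each of these genes lay above both controls in all 3 tumours. Tspan8 and Epcam also did and had entries, but their stretches are not printed. The sequences are the 250 bases before the start of each gene in RefSeq's GRCm38.p6, which had entries for 7 of the 10 members. They are Afp, chr5:90490464-90490713 on the plus strand, Golm1, chr13:59675785-59676034 on the minus strand, and Slc34a2, chr5:53049103-53049352 on the plus strand, each 5′ to 3′.
Afp: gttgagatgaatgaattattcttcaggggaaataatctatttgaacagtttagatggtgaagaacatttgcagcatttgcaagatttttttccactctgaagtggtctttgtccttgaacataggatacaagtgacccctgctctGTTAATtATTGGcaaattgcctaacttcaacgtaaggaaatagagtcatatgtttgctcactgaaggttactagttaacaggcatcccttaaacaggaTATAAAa
Golm1: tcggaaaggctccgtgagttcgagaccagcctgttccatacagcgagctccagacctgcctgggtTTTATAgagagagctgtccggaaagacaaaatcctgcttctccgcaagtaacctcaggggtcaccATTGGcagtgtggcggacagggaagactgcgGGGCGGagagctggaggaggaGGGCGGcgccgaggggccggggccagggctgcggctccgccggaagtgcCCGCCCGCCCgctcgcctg
Slc34a2: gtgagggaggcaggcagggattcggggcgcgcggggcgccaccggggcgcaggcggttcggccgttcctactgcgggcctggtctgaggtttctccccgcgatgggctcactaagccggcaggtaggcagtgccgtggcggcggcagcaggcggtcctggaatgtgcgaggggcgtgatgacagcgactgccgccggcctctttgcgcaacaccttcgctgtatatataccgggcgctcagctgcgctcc

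Capitals mark matches, on either strand, to the 7 motifs searched. These were TATAAA (in 12.37% of 32851 promoter stretches of this length), CCAAT (33.85%), GTTAAT, the half-site of the hepatocyte factor HNF1 (6.43%), GGGCGG (32.74%), the AP-1 site TGANTCA (6.75%), the E-box CACGTG (6.02%) and the nuclear receptor half-site AGGTCA (14.02%). The Afp stretch held GTTAAT, with CCAAT on the other strand 1 base after it, and TATAAA. The Golm1 stretch held TATAAA and CCAAT on the other strand, 4 matches to GGGCGG, 2 of them overlapping, and had 65.6% G and C against 36.0% in Afp. Slc34a2, at 69.6%, held none of the 7. These matches are descriptions of the letters, not of binding.

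**Figure D2:**
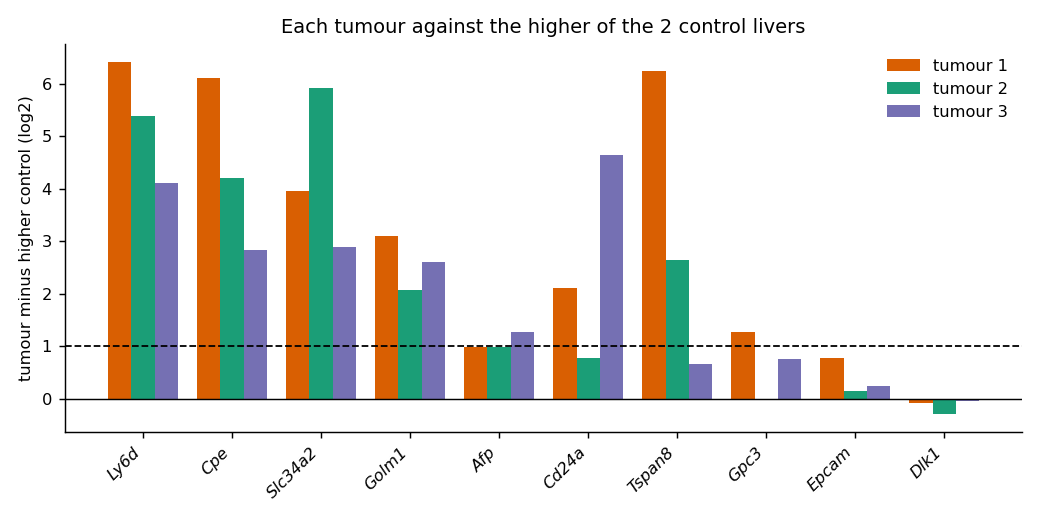
Difference on the log2 scale between each tumour (3 bars per gene, coloured by tumour) and the higher of the 2 control values; the dashed line marks 1 log2 unit. All 3 bars pass the line for Ly6d, Cpe, Slc34a2 and Golm1, the Afp bars end close to it (0.98 to 1.28), and for Tspan8 the bars fall from 6.24 in tumour 1 to 0.67 in tumour 3.

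The widest differences among tumours were in Tspan8 and Cd24a. Tspan8, a tetraspanin of epithelial cell surfaces, read 3.83 and 3.42 in control livers, against 10.07, 6.47 and 4.49 in tumours 1, 2 and 3. The control mean and the value in tumour 3 lay under the lower quartile, so no fold is given against either. The range of 5.57 log2 units among tumours was the largest of the 10 members, and 0.171% of all genes had a range of 4 or more. With so wide a spread the mean difference of 3.39 log2 units had a 95% confidence interval of −0.29 to 7.06. With the controls set to the lower quartile, it was 2.38.

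Cd24a, a heavily glycosylated surface protein with a lipid anchor, had another order. It read 3.95 and 3.27 in the controls and 6.07, 4.72 and 8.58 in the tumours, so that tumour 3 was highest and tumour 2 lowest, 14.5-fold apart. The control mean lay under the lower quartile, and no fold over it is given. The tumours spanned 3.86 log2 units, and the mean difference was 2.85 (SE 1.06), or 1.83 with the controls set to the lower quartile. Tumour 3 therefore had the most Cd24a and the least Tspan8, and tumour 1 the most Tspan8 with an intermediate level of Cd24a. With 1 array per tumour, a difference between single tumours has no replicate check.

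Gpc3, a glypican that carries heparan sulfate chains at the cell surface, was higher in 2 of the 3 tumours. It read 4.86 and 4.75 in control livers, against 6.14, 4.86 and 5.63 in the tumours. Tumour 2 could not be told from the controls (0.00 below the higher one), tumour 1 lay 1.28 above it and tumour 3 0.77 above it. The mean difference was 0.74 log2 units (95% confidence interval −0.14 to 1.62). Epcam, an epithelial adhesion molecule, read 4.29 and 4.55 in the controls and 5.33, 4.71 and 4.81 in the tumours. It was above both controls in each tumour but by at most 0.77, the control mean lay under the lower quartile, and the mean difference was 0.53 (95% confidence interval −0.01 to 1.06).

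Dlk1, a membrane protein of hepatoblasts related to the Notch ligands, showed no difference beyond its interval. It read 6.33 and 6.52 in the controls and 6.44, 6.23 and 6.49 in the tumours, and all 3 tumours lay below the higher control. The difference was −0.04 log2 units with a 95% confidence interval of −0.39 to 0.31, and the interval of Afp was 0.78 to 1.49.

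In the limma fit over all genes, 5 of the 10 members (Afp, Golm1, Ly6d, Cpe and Slc34a2) passed an adjusted p of 0.05 as higher, where 5.60% of all genes did, and none passed as lower, where 4.96% did. Nothing is read from these counts, since the members come from this contrast, and they are not a test of any member. Unlike the calls of other genes below, those of the members were not examined with arrays left out. The median difference over the members was 2.81 log2 units, against −0.02 over all genes. Per tumour it was 2.87, 1.69 and 2.06, and tumour 1 held the highest tumour value for 6 of the members, tumour 3 for 3 and tumour 2 for 1.

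The members' profiles over the 5 arrays were set beside those of other genes by the root mean square distance between log2 values, after subtracting each gene's control mean. Cpe and Ly6d were near each other, at a distance of 0.73, and next to Ly6d stood Igfbp1 (0.54) and Scd2 (0.71). The nearest to Tspan8 was Esm1 (0.89), whose tumour values of 9.47, 7.34 and 6.43 fell in the same order. Gpx3 (0.39) and Plat (0.44) were nearest to Cd24a, both with tumour 3 highest and tumour 2 lowest. Gipc2 (0.53), Cbr3 (0.58) and Fabp4 (0.71) were nearest to Slc34a2, all highest in tumour 2. Tnfrsf9 was nearest to Gpc3 (0.10), Serpinb6a to Golm1 (0.13), Acbd3 to Afp (0.05), Kcnk6 to Epcam (0.04) and Rfxank to Dlk1 (0.02). Smaller distances go with smaller differences, and 5 arrays leave many genes with a like profile.

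A wider set of fetal liver and liver cancer markers, with no member among them, was read for comparison. Of 43 measured, 17 rose and 2 fell, and 24 did not pass, beside 5.60% and 4.96% of all genes. The list was drawn up with earlier results known, so these counts are not independent evidence of a direction. The median difference was 1.07. By the count used above, 16 were found in all 3 tumours, 10 in some and 17 in none. Cldn6, a tight junction protein of embryonic epithelium, rose from 5.22 and 5.08 to 9.72, 10.68 and 9.91 (limma adjusted p = 0.00121). Scd2, a fatty acid desaturase of the fetal liver, rose by 4.88, Lcn2 by 5.47, Anxa2, a membrane-binding annexin, by 4.10, Lgals3, a galectin, by 2.64 and Cd44, the hyaluronan receptor, by 2.20. Igdcc4, a surface protein of fetal hepatic stem cells also called Nope, rose by 1.69 and lost its call without control 1 or control 2.

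Other markers of early liver did not pass in these arrays. Lin28b, Trim71, Igf2bp1, Hmga2 and Sall4 are regulators of fetal and stem cell programs. They differed by −0.04, −0.01, 0.03, −0.13 and 0.34 log2 units, with limma adjusted p of at least 0.44. Lin28b lay under the lower quartile on every array, so little can be read from its difference. Igf2, the fetal growth factor, read 6.70 in tumour 1 alone, against 5.22 and 5.38 in the other tumours and 5.42 and 5.35 in the controls. Glul, normally high around the central vein and in tumours with active beta-catenin, fell by 1.29, and Tert by 1.13, and both calls were also lost without tumour 2, and that of Tert without tumour 1. With control 1 or control 2 left out, Cldn6, Scd2, Lcn2, Anxa2, Lgals3, Cd44, Hk2 and Nqo1 were still called, and the 9 other risen genes and both fallen ones were not.

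**Figure D3:**
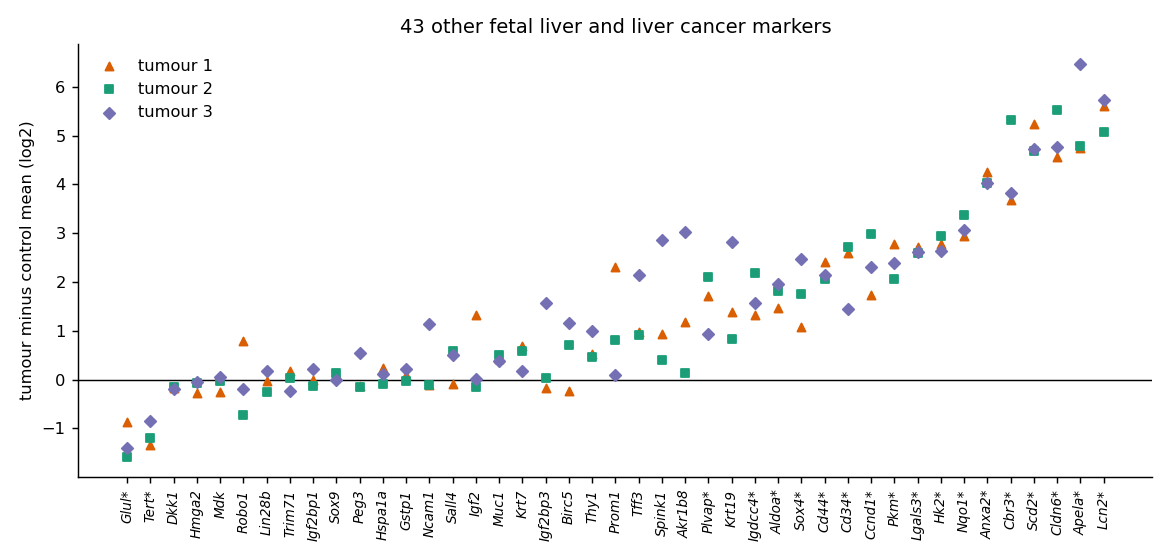
Difference of each tumour from the control mean (y axis, log2; 1 point per tumour) for the 43 other markers, ordered by their mean difference; an asterisk marks genes with a limma adjusted p under 0.05. The risen genes sit in the right part with Lcn2 last, and Glul and Tert lie at the left end. Some uncalled genes, among them Prom1, Krt19 and Akr1b8, lie 1 log2 unit or more above the higher control in 1 or 2 tumours. That distance is not drawn here.

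Relatives and partners of the members were read in the same fit. Of 190 such genes, 17 rose and 13 fell, beside 5.60% and 4.96% of all genes. Most genes of any list do not pass, so nothing about the members is read from these counts. In the albumin family, Gc was not analysed here, Alb stood at −0.12 (limma adjusted p = 0.744) and Afm, which encodes the vitamin E carrier afamin, fell from 9.42 and 9.57 to 6.92, 7.70 and 8.09. Of 15 measured regulators of Afp, 3 fell (Foxa1 by 1.12, Foxa2 by 0.98 and Nr2f2 by 1.57) and 0 rose, with 1 higher at an unadjusted p under 0.05. The repressors known to silence Afp after birth did not pass: Zhx2 differed by 0.02, Zbtb20 by −0.50 and Zfhx3 by 0.64 (limma adjusted p between 0.0978 and 0.965). The calls of Foxa1, Foxa2, Nr2f2 and Afm were lost without control 1 or control 2, and those of Nr2f2 and Afm also without tumour 2.

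None of the 5 other glypicans passed. Gpc6 had the largest difference, 0.54, with the highest value in tumour 1 (6.86), and Gpc1, Gpc2, Gpc4 and Gpc5 differed by between −0.11 and 0.43. Of the 17 measured genes of glypicans, syndecans and heparan sulfate, 2 rose and 2 fell: the syndecan Sdc3 rose by 1.42 and Ext1, a heparan sulfate polymerase, by 0.72, while Sdc2 fell by 1.33 and Notum, which cuts glypicans and Wnt proteins, by 1.86. Without control 1 or control 2 these 4 calls were lost, as were Ext1, Sdc2 and Notum without tumour 2 and Ext1 without tumour 1.

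The phosphate carriers divided. Slc34a1 and Slc34a3, the kidney forms, differed by 0.24 and 0.14 and did not pass, whereas Slc20a1, a widely expressed carrier of another family, rose from 9.12 and 8.76 to 11.01, 11.41 and 10.87. Of the 9 carriers measured, Slc17a3 fell and 7 did not pass. The rise of Slc20a1 was called with any tumour left out and not without control 1 or control 2, and the fall of Slc17a3 was also lost without tumour 2 or tumour 3.

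In the imprinted cluster of Dlk1, 1 of the 4 other genes measured was called. Meg3, the maternally expressed noncoding RNA of the cluster, read 7.07 and 8.75 in the controls and 5.76, 5.35 and 5.09 in the tumours, a fall of 2.51 (limma adjusted p = 0.0308) that was lost without control 2 or tumour 2. Rtl1, Rian and Dio3 differed by −0.28, −0.51 and −0.11 and did not pass, and Rian and Dio3 were low in both groups. Of 22 imprinted growth genes, Meg3 and Slc38a4 fell and 0 rose, with 4 higher at an unadjusted p under 0.05. The fall of Slc38a4, 0.66, was lost without control 1, control 2 or tumour 2. H19 was not analysed here. Of 15 Notch ligands, receptors, targets and cleaving proteases, the protease Adam10 rose by 0.80 and 0 fell, with 1 lower at an unadjusted p under 0.05. That call was lost without control 1 or control 2.

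**Figure D4:**
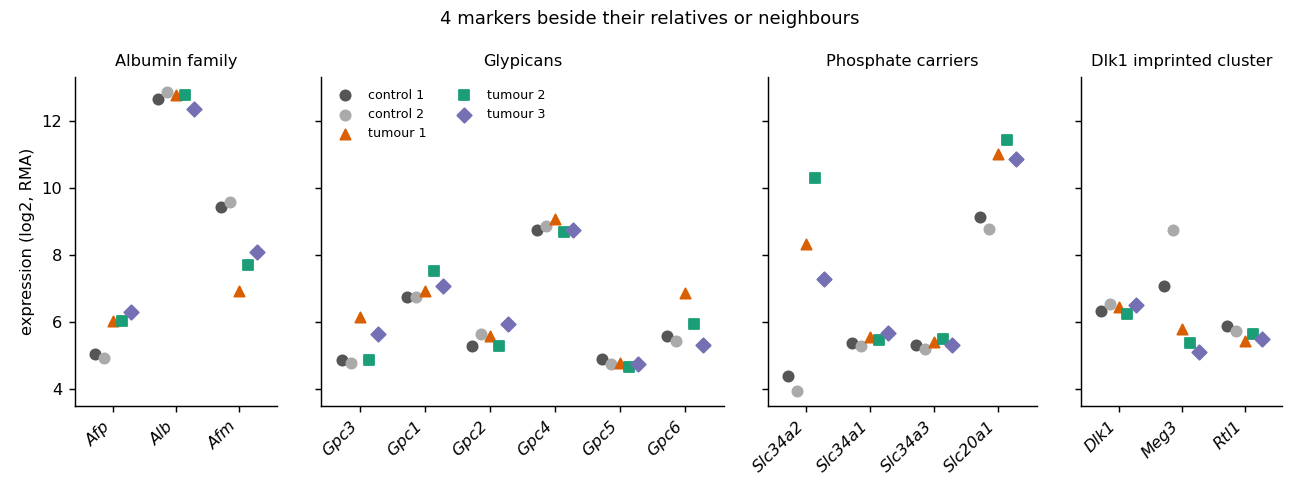
Log2 expression on each of the 5 arrays for Afp, Gpc3, Slc34a2 and Dlk1 (first in each panel) beside relatives or genes of the same cluster; circles are controls and other shapes the tumours. Slc34a2 separates the groups while Slc34a1 and Slc34a3 do not, Afm lies lower in all 3 tumours, and Meg3 is lower in every tumour than in both controls.

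Among 29 tetraspanins other than Tspan8, 7 rose and 1 fell. Cd63, of lysosomes and exosomes, rose by 3.50, Cd9 by 3.26, the leukocyte gene Cd53 by 2.66 and Cd151 by 1.33. Their 3 tumour values lay closer together than those of Tspan8; for Cd9 they were 11.80, 11.26 and 10.83. Cd9 also stands among the 9 measured partners of Epcam, of which 3 rose (Cd9, Cd44 and Cdh1, which encodes E-cadherin and rose by 2.93) and 0 fell, also at an unadjusted p under 0.05. Without control 2 the calls of the 4 risen tetraspanins named here were lost, and without control 1 those of all but Cd63. Cdh1 and Cd44 were called with any array left out.

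Of 26 relatives of Ly6d, Ly6e rose by 1.65 and Lynx1 by 0.54, Cd59a fell by 1.67 and Cd59b by 1.98, and 22 did not pass. These 4 calls were lost without control 1 or control 2, and Lynx1 also without tumour 1 or tumour 2. Near-identical members of the Ly6 family, and retrocopies of Cd24a, can share probes, so their values are uncertain. Of 13 carboxypeptidases other than Cpe, Cpd rose by 0.61 and Cpn1 fell by 1.07, both lost without control 1 or control 2 and Cpd also without tumour 1 or tumour 2. The partners of Cpe in prohormone processing did not pass: 0 of 11 did by limma, and 0 at an unadjusted p under 0.05. Pam, which amidates peptides, was the nearest at 0.71 (limma adjusted p = 0.258), with values of 9.19, 9.20 and 8.18 in the tumours against 8.17 and 8.13. Of 21 Golgi and glycosylation genes set beside Golm1, Mgat4b, which branches N-glycans, rose by 1.22 and 0 fell, with 1 lower at an unadjusted p under 0.05. Mgat4b lost its call without control 1 or control 2. Of 3 measured partners of Cd24a, 0 passed by limma, and 1 was higher at an unadjusted p under 0.05.

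Markers of other cell types that can carry these genes were read on the same arrays. Each count of called genes in these lists stands beside 5.60% of all genes called higher and 4.96% called lower. A count near those shares is not read as a result. Of 12 cholangiocyte markers, Bicc1 rose by 3.08 and 0 fell, also at an unadjusted p under 0.05, and that call was lost without control 1 or control 2. Their summed level, the sum of the values turned back from log2, was 852 to 870 in the controls and 1265 to 1427 in the tumours, and Cftr lay under the lower quartile on every array. Sox9 differed by 0.08 and Krt19 read 6.35, 5.80 and 7.78 in the tumours against 4.87 and 5.05. Krt19 had the order of Cd24a, but the list did not share 1 order. Its median differences were 0.39, 0.54 and 0.28 in tumours 1, 2 and 3. Aqp1 and Prom1 were highest in tumour 1 and lowest in tumour 3, and Cldn4 was highest in tumour 2. The part of bile duct cells in the values of Cd24a, Epcam and Tspan8 was not tested. Of 9 B cell markers, 0 passed by limma and 2 were higher at an unadjusted p under 0.05. Their summed level was 232 to 263 in the controls and 249 to 273 in the tumours, and Cd79a, Ms4a1 and Fcer2a lay under the lower quartile on every array beside the high Ly6d.

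Lung alveolar markers, beside Slc34a2, had 0 of 7 called, summed levels of 261 to 300 in the controls and 271 to 285 in the tumours, and Lamp3 and Scgb1a1 under the lower quartile on every array. Neuroendocrine and pancreatic markers, beside Cpe, had 0 of 7 called and summed levels of 262 to 273 and 237 to 275. In both lists limma gave 0 at an unadjusted p under 0.05. Of 9 gut epithelium markers, beside Tspan8, 0 were called, with 1 higher and 1 lower at an unadjusted p under 0.05. Their summed levels were 620 to 1066 in the controls and 613 to 1165 in the tumours. Fabp2 weighed heavily in the control sums, at 9.44 and 8.14 against 6.57, 8.87 and 7.04 in tumours 1, 2 and 3. The sums therefore do not show the other genes. Krt20, Cdh17 and Tff3 stood at 2.17, 2.24 and 1.35, and Lgals4 and Cdx1 at −0.51 and −0.10. Of 10 squamous markers, beside Ly6d, Sprr1a rose by 4.45 and kept its call with any array left out. The others did not pass, Krt5, Krt6a and Trp63 stood at 0.79, 0.20 and −0.11, and the list's summed level was 286 and 291 in the controls and 1007 to 1241 in the tumours. Sprr1a carried that difference: the 9 other genes summed to 247 and 251 in the controls and 263 to 274 in the tumours. Dsg3, Ivl and Krt1 lay under the lower quartile on every array.

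Other lists differed among the tumours in the same order as some members. Macrophage markers rose in 10 of 18 cases and fell in 1 (Cd163), beside 5.60% and 4.96% of all genes. Their summed levels were 1937 to 2575 in the controls and 7550 to 14088 in the tumours. Their median differences of 2.28, 1.65 and 2.44 in tumours 1, 2 and 3 were ordered as Cd24a was. That order did not hold for every gene of the list. Clec4f read 9.28, 6.37 and 5.03 in tumours 1, 2 and 3, against 7.51 and 7.87 in the controls. Vsig4 read 9.84, 7.34 and 4.55, against 7.07 and 7.83. Timd4 and Marco were likewise highest in tumour 1 and lowest in tumour 3. Of 9 T and NK cell markers 0 passed by limma, with 2 higher at an unadjusted p under 0.05. Their summed level was 240 to 250 in the controls and 340, 347 and 1050 in the tumours, highest where Cd24a was highest, with Gzma and Klrb1c under the lower quartile on every array. Endothelial markers (3 of 12 risen) had median differences of 1.62, 0.54 and −0.24 and stellate and fibroblast markers (1 of 12 risen) had 1.13, 0.46 and 0.01, medians in the order of Ly6d, Cpe and Tspan8. The 3 called endothelial genes had the order of Slc34a2 instead, highest in tumour 2: Cd34 read 7.83, 7.96 and 6.69, Plvap 8.12, 8.51 and 7.33, and Emcn 8.26, 8.91 and 7.49. Besides depending on both controls, these calls were lost without tumour 1 (Plvap and Emcn) or tumour 2 (Cd34 and Plvap). Endothelial summed levels were 2280 and 2552 in control livers, against 4538, 2868 and 1363 in the tumours, and the stellate ones 2336 and 2369 against 4559, 2484 and 1259. No gene of the macrophage, endothelial or stellate list lay under the lower quartile on every array. The part of these cells in the members' values was not tested.

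Over all genes, 4.96% fell and 5.60% rose. Of 11 hepatocyte markers, 2 fell (Asgr1 by 1.22 and Ttr by 0.71) and 0 rose, also at an unadjusted p under 0.05. Both calls were lost without control 1, control 2 or tumour 2, and that of Ttr also without tumour 1. Their median differences were −0.15, −0.11 and −0.37. Proliferation markers rose in 4 of 9 cases, Mki67 by 2.30, and their median differences of 0.57, 1.74 and 1.63 were lowest in tumour 1, which held the highest value of 6 members. The Mki67 call was lost without control 1, control 2 or tumour 2. Neutrophil, erythroid and mesothelial lists had 0 genes called by limma out of 10, 8 and 7, with 1, 2 and 0 at an unadjusted p under 0.05. Over all the cell type lists, the fits without control 1 and without control 2 called 1 and 2 genes higher in place of 20. They called 0 lower in place of 3, with 5 and 9 lower at an unadjusted p under 0.05.

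**Figure D5:**
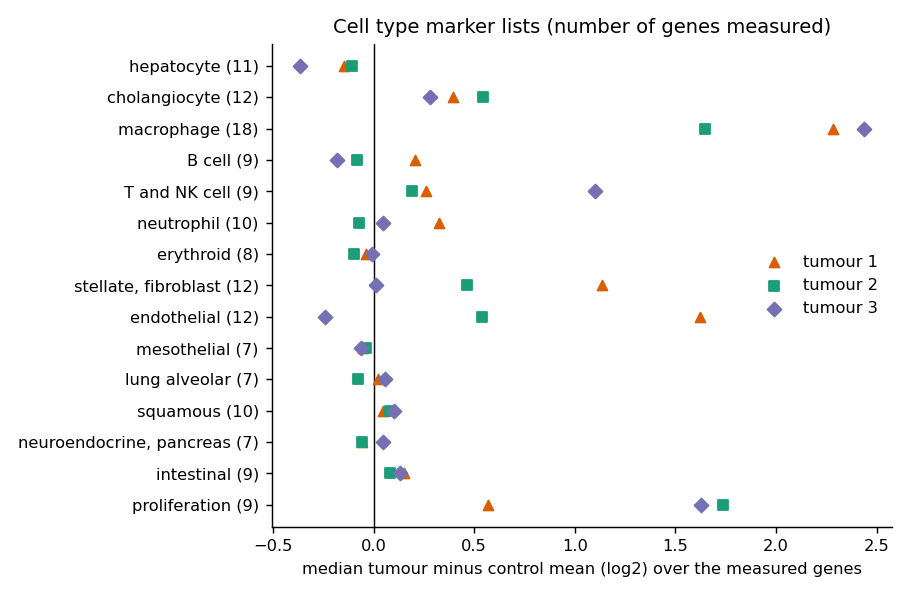
Median difference from the control mean (x axis, log2) over the measured genes of each cell type list, with 1 point per tumour and the number of genes in brackets. The macrophage median is raised in all 3 tumours (1.65 to 2.44), the endothelial and stellate medians are highest in tumour 1, and lung, mesothelial and neuroendocrine lists stay near 0.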

How the data were processed

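Affymetrix mouse gene arrays were hybridised with total RNA of 5 liver samples, per the labels. The authors' deposited values are on a log2 scale, 1 for each probe set on each array. The submitters' processing notes name GCOS and RMA without versions. RMA corrects background, normalises by quantiles and compresses low values. For the genome build, the sources used here give nothing. Of 28853 probe sets, 21789 had 1 gene symbol, 1621 several and 5443 none; only those with 1 were kept. Among them, 21698 matched a gene table by Entrez identifier, and 0 symbols changed. The probe set with the highest mean stood for each of 999 genes with more than 1, which left 19938 genes. 0 columns of other samples were present, and array medians lay between 5.66 and 5.77.

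Tumour minus control was fitted with limma 3.58.1 in R 4.3.3 (lmFit and eBayes, 5 arrays, 3 residual and 2.98 prior degrees of freedom), two-sided, with Benjamini-Hochberg adjustment over all genes and a threshold of 0.05. With 2 arrays against 3, the smallest p that exact permutation allows is 0.1, so calls rest on spread shared across genes, and the number of arrays limits the precision. The procedure was tested on simulated data in which tumours and controls of a gene had the same spread. It was not tested for groups of unequal spread. The members and the 29 gene lists (421 entries, 385 measured) were chosen with earlier results of these data known. Low values were judged against the lower quartile of all genes, 4.62 on the controls and 4.63 on the tumours.

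Named were all members, up to 4 genes per list with the smallest p that were not low in both groups, a fixed set of relatives, Hdac3, and nearest profiles (mean of at least 6 over the arrays, 3 per member, of which some are printed). Other names were chosen after their values were seen. Alternatives were other normalisations, probe set means, removal of the dimmest 40%, other variance models, other counting distances, the replicate number as a block and leaving out each array. Python 3.11.15, pandas 2.3.3 and matplotlib 3.10.9 were also used.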

Additional observations from a re-analysis of the deposited data

How the results depend on the processing

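The number of members found in every tumour (4) was 7 at a distance of 0.5 log2 units above the higher control, 4 at 2 units and 6 at 1 unit above the control mean, and 4 to 7 with 1 array left out. The number found in some tumours (4) was 2 at each of these 3 settings and 1 to 5 with 1 array left out. The median difference over the members ranged from 2.19 to 3.34 with 1 array left out. Each member's own difference moved by less than its spread between replicates under every alternative run. Leaving out 1 array cannot move a group mean by as much as that group's spread, so for those fits this was fixed in advance. With 1 array left out, the difference of Tspan8 ranged from 1.86 to 4.65 and that of Cd24a from 1.79 to 3.71. With each array shifted to a common median, 949 genes were called higher and 1275 lower, so 42.7% of calls were higher instead of 53%, and the cell type lists had 6 lower instead of 3. Without shared spread, an ordinary test per gene called 6 genes higher and 12 lower in all, and 0 in either direction among the other oncofetal markers, the relatives and the cell type lists, where 18 and 2, 28 and 17, and 23 and 7 were higher and lower at an unadjusted p under 0.05. Removing the dimmest 40% of genes left 1 of the 2 fallen oncofetal markers. With 1 array left out, counts higher and lower were 62 to 1465 and 46 to 1254 over all genes, 8 to 20 and 0 to 2 for the other oncofetal markers, 2 to 28 and 0 to 15 for the relatives, and 1 to 33 and 0 to 5 for the cell type lists, lowest without a control. In the fits with a lower count of 0, between 2 and 15 genes of the list were lower at an unadjusted p under 0.05. Without control 1, 47 of 59 named calls were lost, where members and Tspan12 are not counted. Without control 2, 48 were lost, and without tumour 2, 20. None of these calls changed direction under any alternative. The replicate number as a block gave a median member difference of 2.28, 1342 genes higher and 1034 lower, and 35 higher in the cell type lists instead of 20. Tumour 3 has no control of its number, so it adds nothing to the differences of that fit, which equal those without tumour 3. The labels do not say that same-numbered arrays are paired. Correlations of their deviations from the group means were 0.00 and −0.01 over genes. With 2 controls, whose deviations mirror each other, these values cannot decide on a pairing. The causes of these changes were not tested beyond the loss of arrays itself.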

Other observations

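Several genes of the lists above stood out in a single tumour, and the ones named here were chosen after their values were seen. Plagl1, an imprinted zinc finger gene of fetal growth, read 9.10 in tumour 3, against 5.01 and 4.39 in the other tumours and 4.77 and 4.88 in the controls. In tumour 1 the imprinted genes Igf2 (6.70) and Mest (6.54) were raised, with Mest at 4.65 and 4.49 in tumours 2 and 3 and 4.63 and 4.42 in the controls. Prom1, a progenitor surface marker, had the order of Tspan8 among the tumours, at 6.53, 5.04 and 4.33 against 4.20 and 4.25.

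Other genes read highest in tumour 3, as Cd24a did, while Prom1, Vil1 and Krt5 were highest in tumour 1 and Cldn4 in tumour 2. Krt20, an intestinal keratin, read 4.29, 5.61 and 8.51 in tumours 1, 2 and 3 against 3.90 and 4.04 in the controls. Akr1b8, an aldo-keto reductase, read 6.31, 5.25 and 8.14 against 5.16 and 5.07, and Cdh17, an intestinal cadherin, read 6.54, 3.48 and 7.43 against 3.40 and 3.75. Igf2bp3, an RNA-binding protein of fetal tissue and many cancers, reached 6.47 in tumour 3 and between 4.71 and 5.03 elsewhere. None of these genes passed limma's test of the 3 tumours against the controls, and with 1 array per tumour no difference between tumours was tested.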
